A study of Mus musculus with 816 samples.

Results

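Primary mouse microglia were kept for 72 h with a low dose of bacterial lipopolysaccharide, called LPS_lo, together with interleukin 4 (LPS_lo + IL4, 5 cultures) or interleukin 13 (LPS_lo + IL13, 5 cultures). These 10 cultures, of 816 samples in the whole series, were picked by their treatment and duration labels, and each group was compared gene by gene with the 11 cultures that received LPS_lo alone for 72 h. The cells were commercial microglia from neonatal mouse brain, all with the same source ID, grown in multi-well plates, and the RNA of each well was read from its 3′ ends in pooled, barcoded libraries. LPS_lo was 0.00001 µg/µl in all these groups. The labels of the combinations give no dose for the cytokine, while IL4 alone and IL13 alone were given at 0.00005 µg/µl. Untreated cultures (None, n = 25), IL4 alone (n = 3) and IL13 alone (n = 6), all at 72 h, gave the effect of each cytokine without LPS_lo. The labels name neither strain nor genotype, and no group carried a genetic change by its labels. Cultures of 1 group came from separate wells, and nothing in the labels says that they came from separate animals, so the p-values below measure the spread between these wells, which may be technical.

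IL4 and IL13 are related cytokines of T helper cells, mast cells and innate lymphoid cells. IL4 binds IL4Rα paired with the common γ chain or with IL13Rα1, and IL13 binds IL13Rα1 paired with IL4Rα. Both receptors act through JAK kinases on the transcription factor STAT6, and in macrophages and microglia this pathway switches on arginase (Arg1), the resistin-like protein Retnla, the chitinase-like protein Chil3 and the mannose receptor Mrc1. LPS acts through TLR4, by way of NF-κB and of interferon, on genes for inflammatory cytokines, chemokines and nitric oxide synthesis.

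The labelled cell type was checked first on its markers. In the 3 LPS_lo groups Csf1r, the receptor for a macrophage growth factor, measured 1631 to 3523 CPM (reads of a gene per M mapped reads) per culture and the complement gene C1qa 991 to 2465 CPM, while P2ry12 reached at most 4.24 CPM and Tmem119 at most 51.8 CPM. Summed markers of neutrophils, monocytes, T cells, B cells, dendritic cells, and mast cells or basophils reached at most 19.1 CPM for any list in any of these cultures. Those of neurons reached at most 10.8 CPM, of fibroblasts 43.6 CPM, of astrocytes 44.7 CPM and of endothelial cells, mainly Pecam1, 90.1 CPM. Markers of the oligodendrocyte lineage, of which Mbp, Mag and Cnp were above 5 CPM on average in each group, summed to 0.751 to 87.2 CPM in LPS_lo + IL4, to 14.4 to 73.5 CPM in LPS_lo + IL13 and to 41.7 to 158 CPM in LPS_lo, and their part in the results was not tested. Of 6 markers of perivascular macrophages, 4 were tested, and Mrc1, Cbr2 and Pf4 rose in LPS_lo + IL4. In that group 2 of the 6 were listed at 0 in every culture. Mrc1 is also on the list of IL4 and IL13 targets read below. The sum of the 6 was 616 to 1143 CPM in LPS_lo + IL4. It was 283 to 519 CPM in LPS_lo + IL13 and 196 to 452 CPM in LPS_lo. Whether more cells of that kind took part in the rise was not tested. In bulk wells, fewer cells of a type and less RNA per cell cannot be told apart.

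The wells were spread unevenly over 4 plates and several library pools. Replicates 1 to 4 of each combination shared plate 1 with 4 of the 11 LPS_lo cultures, replicate 5 of each was on plate 3, which held no LPS_lo culture, and the other 7 LPS_lo cultures were on plates 2 and 4. On plate 1 the LPS_lo + IL4 wells were in pool 1, and the LPS_lo and LPS_lo + IL13 wells were in pool 2, so no LPS_lo well shared a pool with LPS_lo + IL4. A fit with the pool as a term, over all cultures at 72 h, called 157 genes for IL4, 111 higher and 46 lower. The wells also differed in position. All None wells of plates 1, 3 and 4 were in the top row or a corner, whereas the 3 IL4 wells, 5 of the 6 IL13 wells, 4 of 5 wells of each combination and 9 of 11 LPS_lo wells were in the middle of a plate. On plates 1, 3 and 4, position and treatment therefore cannot be told apart in comparisons with None, the interactions with LPS_lo included. Plate 2, where the None wells were in the middle, held no IL4 or IL13 well of these groups. The replicate 5 cultures stood apart from the rest of their groups on the first principal component of the 6 groups (123 and 91.8, against -23.7 to 0.68 for the plate 1 combinations). Depth was estimated from the most common low CPM value of each culture, taken as 1 read. By this estimate it ran from 1.33 to 16.2 M mapped reads in LPS_lo + IL4, from 1.88 to 15.7 M in LPS_lo + IL13 and from 1.05 to 11.3 M in LPS_lo. For the main counts and for some genes, results from plate 1 alone are also given.

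In the presence of LPS_lo, adding IL4 called 231 of 11722 tested genes (1.97%), of which 99 rose (0.845%) and 132 fell (1.13%), whereas adding IL13 called 8 genes (0.0682%), of which 5 rose (0.0427%) and 3 fell (0.0256%). A gene was called at a Benjamini-Hochberg adjusted p under 0.05 with a log2 fold change of at least 1 in limma, on log2(CPM + 1). All fold changes below are log2 values of CPM + 1, so those of low genes come out too small, and all adjusted p values come from this fit unless plate 1 is named. Of the genes called for IL4, 112 had no overlap between the 5 and the 11 cultures, as had 178 of all 11722 genes. On plate 1 alone (4 against 4 cultures, 10137 genes) IL4 called 154 genes (1.52%), 90 higher (0.888%) and 64 lower (0.631%), and IL13 called 6 (0.0592%), all higher. Without LPS_lo + IL4 replicate 5, the culture on plate 3, IL4 called 137 genes. Of the 231 genes, 222 were tested on plate 1, and all 222 had the same sign there, with 109 also called. The plate 1 cultures were also part of the fit that chose the 231 genes, so the shared sign is not an independent check.

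Arginase 1 (Arg1), which splits arginine to ornithine and urea, had the largest rise for both cytokines, and it lies at chr10:24915221-24927484 on the minus strand (GRCm38). In the LPS_lo + IL4 cultures it measured 409.8, 849.7, 752, 646 and 904 CPM, in LPS_lo + IL13 57.5, 68.5, 96.4, 174 and 47.5 CPM, and with LPS_lo alone 0 to 31.4 CPM (median 3.6). Neither combination overlapped LPS_lo, and every LPS_lo + IL4 culture was above every LPS_lo + IL13 culture. The log2 fold change was 7.04 ± 0.71 (SE, adjusted p = 1.43e-10) for IL4 and 3.95 ± 0.71 (SE, adjusted p = 0.00305) for IL13. The LPS_lo wells of plate 1 held 14.1 to 31.4 CPM against 0 to 4.1 CPM on the other plates, and on plate 1 alone the log2 fold changes were 4.91 (adjusted p = 4.52e-10) and 2.09 (adjusted p = 0.00277). All wells of pools 1 and 2 that received neither cytokine held 10.4 to 53.4 and 12.7 to 56.4 CPM of Arg1, and those of pools without any IL4 or IL13 well had a median of 2.31 CPM. With the pool as a term, the Arg1 fold changes were 5.25 for IL4 (adjusted p = 2.20e-11) and 2.35 for IL13 (adjusted p = 0.149), so the IL13 call was lost. It was also lost with a plate term in the 6 groups.

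The arginine transporter Slc7a2 (chr8:40862396-40922308, plus strand) moved in the same order. It measured 179, 824, 837, 900.2 and 733 CPM with IL4, 212, 160.5, 120.3, 82 and 59.3 CPM with IL13 and 5.14 to 33.7 CPM (median 11.7) with LPS_lo alone. Both combinations lay wholly above LPS_lo, and the rises were 5.45 ± 0.64 (SE, adjusted p = 1.05e-08) for IL4 and 3.06 ± 0.64 (SE, adjusted p = 0.0222) for IL13. Atp6v0d2, a subunit of the vacuolar proton pump (chr4:19876841-19922605, minus strand), measured 179, 411, 279.9, 328 and 203 CPM with IL4, 41, 62.1, 49, 68.1 and 49.8 CPM with IL13 and 1.72 to 24.2 CPM with LPS_lo alone. Again neither combination overlapped LPS_lo, with rises of 4.66 ± 0.41 (SE, adjusted p = 2.10e-12) and 2.35 ± 0.41 (SE, adjusted p = 0.00200). The IL13 call of Atp6v0d2 was lost with a pool term (2.19, adjusted p = 0.0869) and with a plate term over all cultures at 72 h (2.15, adjusted p = 0.162), and that of Slc7a2 with a plate term in the 6 groups (2.83, adjusted p = 0.0637). On plate 1 alone the IL4 and IL13 values were 5.04 (adjusted p = 2.54e-08) and 2.96 (adjusted p = 0.00163) for Slc7a2, and 3.92 (adjusted p = 1.11e-08) and 1.54 (adjusted p = 0.0445) for Atp6v0d2.

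**Figure D1:**
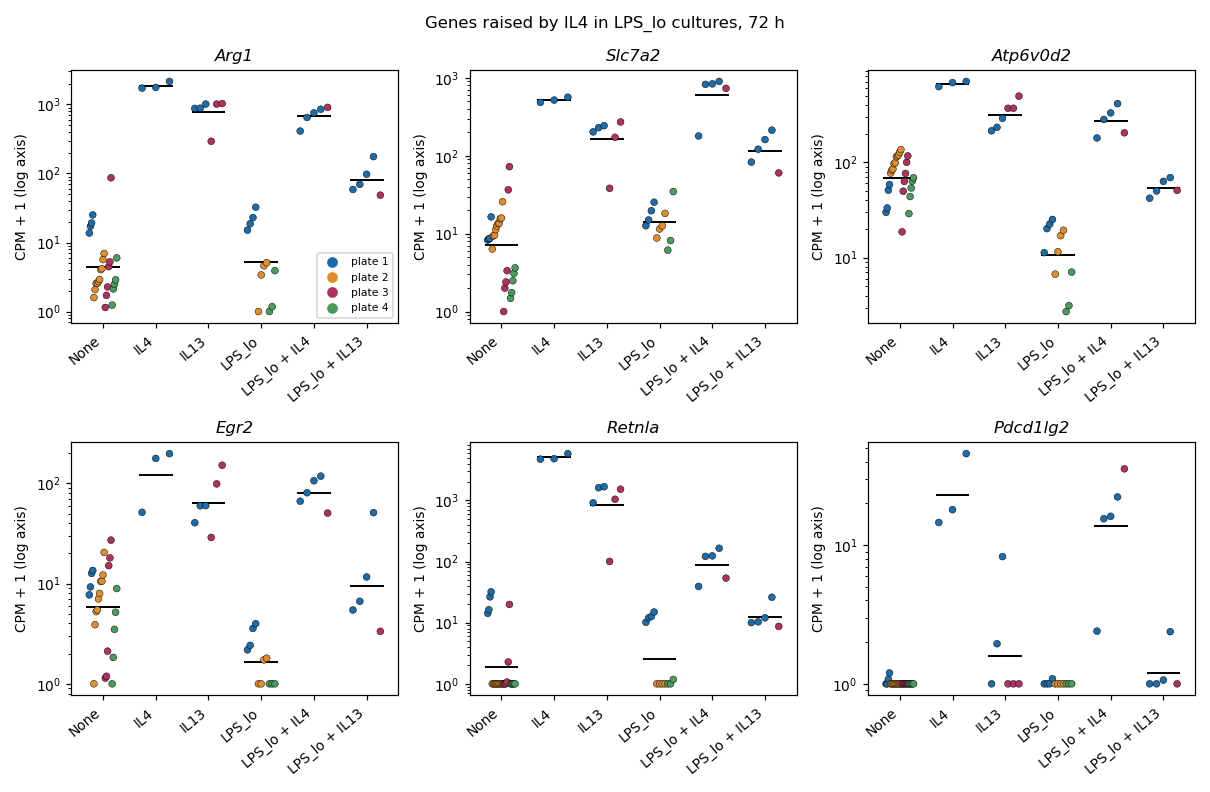
Level of 6 genes in each culture of the 6 groups at 72 h, on a log axis of CPM + 1, with points coloured by plate and a bar at the back-transformed mean of log2(CPM + 1). All 5 LPS_lo + IL4 cultures lay above all 11 LPS_lo cultures for each of the 6 genes, and Retnla, Arg1 and Atp6v0d2 were higher still with IL4 alone.

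Of 42 genes listed as targets of IL4 and IL13 in macrophages, 33 were tested. This list, like those below, was chosen with earlier results of these data known, so its counts are not independent evidence. With IL4, 17 of the 33 rose and none fell, where 0.845% of all tested genes rose. A positive log2 fold change was seen for 31 of the 33 (median 2.30, against -0.13 over all tested genes). The 17 that rose were Arg1, Slc7a2, Atp6v0d2, Retnla, Chil3, Mrc1, Clec10a, Mgl2, Clec7a, Cish, Egr2, Pdcd1lg2, Flt1, Rnase2a, Ptgs1, Ch25h and Fn1. The median of the list was 1.88 on plate 1 alone. With IL13, 3 of the 33 rose (Arg1, Slc7a2 and Atp6v0d2), 25 were positive, and the median was 0.30 against -0.11 over all genes. Ccl17, a chemokine on the list, was listed at 0 in every LPS_lo, LPS_lo + IL4 and LPS_lo + IL13 culture.

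Of the transcription factors and receptors on this list, Egr2, a zinc-finger factor induced by STAT6, measured 65.5, 117, 105, 79.7 and 49.6 CPM with IL4, 10.7, 5.66, 4.45, 50.1 and 2.34 CPM with IL13 and 0 to 2.98 CPM with LPS_lo alone. It rose by 5.62 ± 0.65 (SE, adjusted p = 8.60e-09) with IL4, and with IL13, where replicate 4 alone was in the IL4 range, the value was 2.51 (adjusted p = 0.172). The mannose receptor Mrc1 measured 60.6, 213, 167, 202 and 191 CPM with IL4, 17.1, 30.7, 18, 24.5 and 2.01 CPM with IL13 and 1.7 to 17.2 CPM with LPS_lo alone. Its IL4 cultures were all above the others, and the rise was 4.05 ± 0.65 (SE, adjusted p = 2.65e-05). Pdcd1lg2, which encodes the PD-1 ligand PD-L2, was listed at 0 in 10 of 11 LPS_lo cultures and in 3 of 5 LPS_lo + IL13 cultures, and measured 1.4, 15.1, 21.3, 14.5 and 34.6 CPM with IL4. Its rise with IL4 was 3.76 ± 0.38 (SE, adjusted p = 1.33e-10).

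Retnla and Chil3, secreted proteins used as markers of alternative activation, rose with IL4 but remained low. Retnla (chr16:48842551-48844461, plus strand) measured 38.2, 120.4, 123, 164 and 52.6 CPM with LPS_lo + IL4, 25, 11, 9.01, 9.34 and 7.69 CPM with LPS_lo + IL13 and 0 to 13.9 CPM with LPS_lo, where the 4 wells of plate 1 held 9.14 to 13.9 CPM and the other 7 at most 0.178 CPM. With IL4 alone it reached 4721 to 5819 CPM. Wells of pools 1, 2 and 5 that had received neither cytokine held 25.1 to 56, 5.17 to 31.7 and 0.299 to 9.32 CPM of Retnla. Every LPS_lo + IL13 culture lay within the range of such wells of its own pool, and so did LPS_lo + IL4 replicate 1, while the other 4 LPS_lo + IL4 cultures were above it. Its log2 fold change was 5.12 (adjusted p = 3.03e-05) for IL4 over all plates and 3.01 (adjusted p = 3.18e-05) on plate 1, and 2.28 (adjusted p = 0.673) and 0.13 (adjusted p = 0.999) for IL13. Chil3 measured 22.3, 15.4, 22.3, 19.9 and 38.3 CPM with LPS_lo + IL4, 0 to 3.2 CPM with LPS_lo + IL13 and 0 to 3.52 CPM with LPS_lo, and rose by 3.90 ± 0.54 (SE, adjusted p = 7.36e-07) with IL4. Wells of pool 1 without either cytokine held 0.750 to 16.8 CPM of Chil3, a range that overlaps the lowest LPS_lo + IL4 culture, and its reads can be shared with near-identical chitinase-like genes.

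Promoters were searched for the letters of known factor sites. Genes were ranked by the smaller of their fold changes with IL4 and IL13, whether or not the IL13 change was called. RefSeq promoter sequences (250 bases before the start, GRCm38.p6) were held for 6 genes of that ranking, Egr2, Lad1, Cbr2, Retnla, Ptgs1 and Il20rb, and not for Arg1, Slc7a2, Atp6v0d2 or Gm9531. Of the 6, Lad1 alone was called higher with IL13. The STAT6 letters, TTC and GAA with 4 bases between them, were searched on both strands and found in 5.86% of 27025 promoters. Of the 6 genes they occurred in Retnla alone, 145 bases before the start, and are given in capitals in the first sequence (chr16:48842359-48842608, plus strand). The general STAT letters, TTC and GAA with 3 bases between them (7.18% of promoters), and the interferon element, GAAA and GAAA with 2 bases between them (3.04%), were in none of the 6. NF-κB letters, GGG and CC with 5 bases between them (45.4% of promoters), occurred in Egr2, Cbr2 and Il20rb. The second sequence is the promoter of Lad1 (chr1:135818348-135818597, plus strand), which rose with both cytokines in LPS_lo and held none of the 4 motifs.
Retnla: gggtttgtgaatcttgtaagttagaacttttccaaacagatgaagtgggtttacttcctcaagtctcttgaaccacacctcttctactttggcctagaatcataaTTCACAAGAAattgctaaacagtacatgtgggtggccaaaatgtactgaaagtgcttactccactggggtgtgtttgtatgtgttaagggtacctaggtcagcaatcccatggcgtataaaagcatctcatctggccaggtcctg
Lad1: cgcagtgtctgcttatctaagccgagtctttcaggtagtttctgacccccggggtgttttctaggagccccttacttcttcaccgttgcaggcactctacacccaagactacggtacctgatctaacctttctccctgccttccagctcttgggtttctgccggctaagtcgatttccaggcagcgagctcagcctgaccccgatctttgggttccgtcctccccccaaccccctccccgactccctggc

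Further large rises with IL4 were named by the same rule. Carbonyl reductase 2 (Cbr2) measured 17.1, 156, 120.0, 132 and 213 CPM with IL4, 38.4, 17.6, 10.7, 8.0 and 0 CPM with IL13 and 0 to 10.5 CPM with LPS_lo alone, a rise of 5.69 ± 0.92 (SE, adjusted p = 2.64e-05) with IL4. Replicate 1 of LPS_lo + IL4 was far below the other 4, and still above all LPS_lo cultures. It lay within the 0.395 to 22.6 CPM of Cbr2 held by wells of pool 1, its own pool, that received neither cytokine. Itgax, the integrin chain CD11c, measured 226, 252, 154, 318 and 139 CPM with IL4 against 0 to 21.3 CPM with LPS_lo and an untreated median of 35.6 CPM, a rise of 5.09 ± 0.60 (SE, adjusted p = 1.23e-08). Fibronectin (Fn1), which is also on the target list, measured 46.8, 124, 91.6, 101 and 45.1 CPM against 1.07 to 6.76 CPM and rose by 4.19 ± 0.58 (SE, adjusted p = 8.02e-07). Wells of pool 1 that received neither cytokine held 0.750 to 137 CPM of Fn1, a range that spans the LPS_lo + IL4 wells of that pool. The homeobox factor Msx3, with 3.63, 45.3, 90.8, 39.7 and 97.7 CPM with IL4, was at or below 2.01 CPM in all LPS_lo + IL13 and LPS_lo cultures, and rose by 4.96 ± 0.59 (SE, adjusted p = 1.36e-08). Further rises by the same rule were 4.52 for Myrf, a myelin gene regulator, 4.28 for the immune adaptor Scimp and 4.07 for the membrane protein Tmem26, with all IL4 cultures above all LPS_lo cultures for each.

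Genes of the receptors and of the signal itself were read next. Of 18 listed, 16 were tested and 3 were called with IL4, where 1.97% of all genes were: Cish rose, Socs3 and Ptpn1 fell, and the median was -0.12 with IL4 and -0.09 with IL13. Il4ra, the shared receptor chain, measured 30.5 to 104 CPM with IL4 and 36.7 to 87.1 CPM with LPS_lo (log2 fold change -0.46, adjusted p = 0.717), and Stat6 85.1 to 367 against 131 to 389.9 CPM (log2 fold change -0.20, adjusted p = 0.897). Il13ra1, a chain of receptors for both cytokines, was low in LPS_lo + IL4, at 0 to 5.09 CPM, and the common γ chain gene Il2rg measured 196 to 733 CPM there. The levels of Il13ra1 and Il2rg are given for LPS_lo + IL4 only, so they show no contrast between the groups. Whether receptor levels had a part in the difference between the cytokines was not tested. Cish, a STAT-induced inhibitor of cytokine signalling, measured 11.6, 16.9, 13.8, 23.6 and 4.51 CPM with IL4, 0 to 5.59 CPM with IL13 and 0 to 3.6 CPM with LPS_lo, and rose by 3.04 ± 0.43 (SE, adjusted p = 1.37e-06) with IL4. Socs3, an inhibitor of STAT3 signalling, fell by 2.35 (adjusted p = 0.0126), and the phosphatase gene Ptpn1 fell by 1.29 (adjusted p = 0.00114).

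The largest falls with IL4 included genes of inflammation and of innate immune receptors. Il1b, the interleukin 1β gene (chr2:129364570-129371139), measured 1.21, 0.493, 0.665, 1.47 and 0 CPM with IL4, 45.3, 5.28, 9.12, 12.2 and 11.7 CPM with IL13 and 4.54 to 38.8 CPM (median 26.4) with LPS_lo alone. Every IL4 culture was below every LPS_lo culture and the change was -3.87 ± 0.57 (SE, adjusted p = 3.07e-06) with IL4 and -0.84 (adjusted p = 1) with IL13. The formyl peptide receptor Fpr2 (chr17:17887824-17893952) measured 47.8, 108, 31.9, 62.5 and 48.1 CPM with IL4, 739, 826, 622, 239.6 and 667 CPM with IL13 and 607 to 2545 CPM with LPS_lo. The IL4 cultures were all lower than the other 16, with a change of -4.52 ± 0.74 (SE, adjusted p = 3.13e-05) for IL4 and -1.16 (adjusted p = 1) for IL13. Serum amyloid Saa3 (chr7:46711998-46715700), an acute-phase protein, measured 294, 282, 389.9, 215 and 229.9 CPM with IL4, 1746, 1504, 1707, 568.2 and 609.9 CPM with IL13 and 2143 to 5480.0 CPM with LPS_lo. Both combinations were wholly below LPS_lo for Saa3, but the change of -3.72 ± 0.77 (SE, adjusted p = 0.00152) was called for IL4 and that of -1.74 (adjusted p = 0.873) for IL13 was not. Lcn2, the iron-siderophore binder lipocalin 2, measured 70.4, 64.5, 12.3, 48.4 and 6.01 CPM with IL4, 105 to 348 CPM with IL13 and 155 to 620.3 CPM with LPS_lo, and changed by -3.35 ± 0.62 (SE, adjusted p = 2.60e-04) with IL4.

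**Figure D2:**
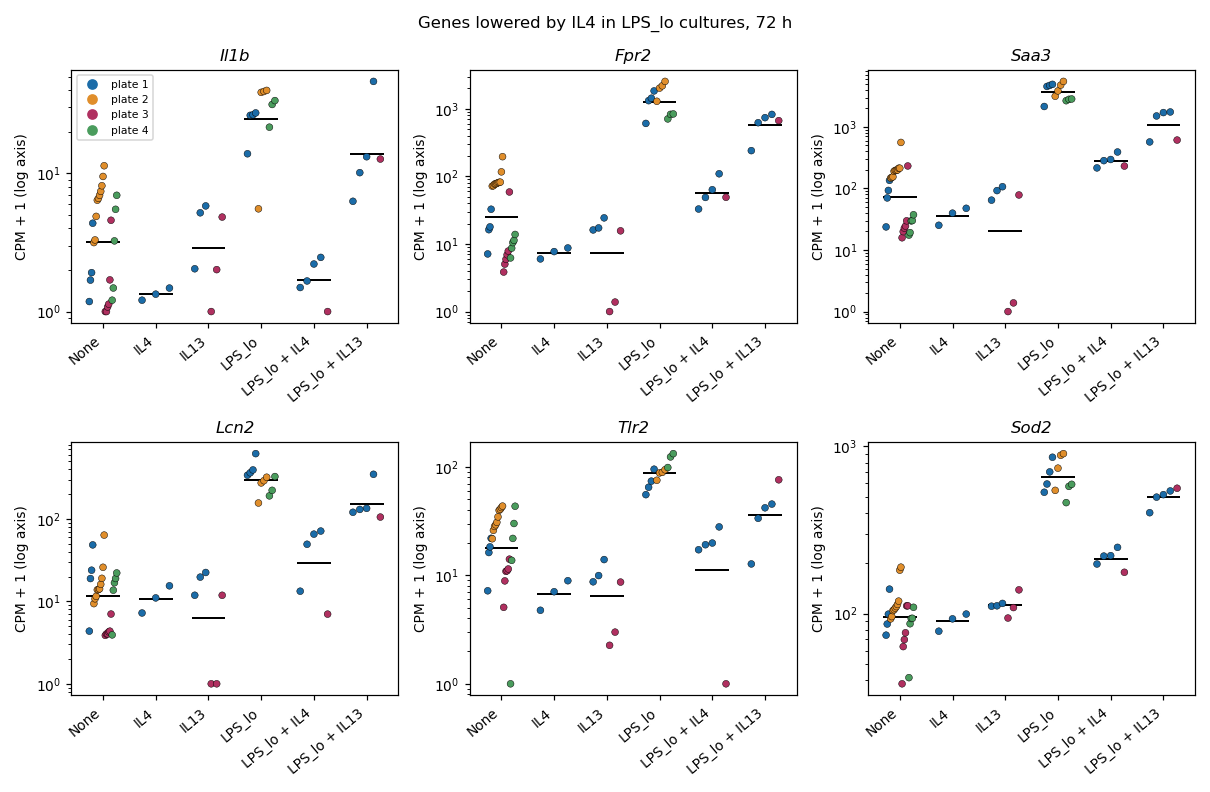
Level of 6 genes that fell with LPS_lo + IL4, in each culture of the 6 groups at 72 h, on a log axis of CPM + 1, with points coloured by plate and a bar at the back-transformed mean of log2(CPM + 1). The LPS_lo + IL4 cultures lay below all LPS_lo cultures for each of the 6 genes, while most LPS_lo + IL13 cultures lay between them and LPS_lo or within LPS_lo.

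Other large falls were in adhesion and surface receptor genes. The integrin αL gene Itgal measured 137, 129, 120.3, 84 and 16.5 CPM with IL4, 492, 461, 427, 298 and 338 CPM with IL13 and 531 to 964 CPM with LPS_lo, and changed by -3.18 ± 0.41 (SE, adjusted p = 1.51e-07) with IL4. All IL4 cultures were below all others, and replicate 5 was the lowest of them. The matricellular protein gene Thbs1 measured 0 to 6.55 CPM with IL4 against 19.1 to 117 CPM (log2 fold change -4.22, adjusted p = 4.25e-04), the receptor gene Sirpb1c 0.751 to 16 against 31.8 to 153 CPM (log2 fold change -3.75, adjusted p = 9.02e-06), and the lectin-like receptor gene Klra2 0 to 8.8 against 14 to 115 CPM (log2 fold change -3.67, adjusted p = 7.26e-06). Gpr18, a lipid receptor, was listed at 0 in 4 of 5 LPS_lo + IL4 cultures and measured 0.849 to 30.4 CPM with LPS_lo. The rule also named Gm16933 (log2 fold change -4.27, adjusted p = 0.00529), Gm14446 (log2 fold change -3.47, adjusted p = 3.51e-05) and Pilrb2 (log2 fold change -3.46, adjusted p = 2.60e-04). Gm16933 did not pass on plate 1 (adjusted p = 0.137). Reads of Sirpb1c, Klra2, Fpr2, Gm14446 and Pilrb2 can be split with close paralogs.

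Among 32 genes of TLR and NF-κB signalling, 29 were tested and 5 fell with IL4, none rose, and the median was -0.39 with IL4 and -0.23 with IL13, against -0.13 and -0.11 over all genes. On plate 1 these medians were -0.37 and -0.09, against -0.03 over all genes for both. Tlr2, a receptor for bacterial lipoproteins, measured 18.8, 16.2, 26.9, 18.1 and 0 CPM with IL4 and 54.3 to 131 CPM with LPS_lo (log2 fold change -2.95, adjusted p = 0.00110). Cd14, the LPS co-receptor, measured 57.1, 21.8, 22.9, 17.3 and 24.8 against 56.8 to 175 CPM, where the highest IL4 culture reached the lowest LPS_lo culture (log2 fold change -1.76, adjusted p = 0.0170). Irak3, a negative regulator of TLR signalling, measured 15, 13.7, 7.98, 14.5 and 35.3 against 61.9 to 179.7 CPM (log2 fold change -2.56, adjusted p = 0.00275), and Nfkbiz and Tnip1, NF-κB regulators induced by TLR signals, changed by -2.27 (adjusted p = 0.0171) and -1.44 (adjusted p = 0.0208). Of these 5, Cd14, Nfkbiz and Tnip1 were no longer called without LPS_lo + IL4 replicate 5.

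Inflammatory cytokine genes were mostly low at 72 h, and 13 of 22 could be tested. Il1b and Il10 fell with IL4, Il10 by 2.26 (adjusted p = 0.00110), and the median was -0.87 with IL4 and -0.59 with IL13 (-1.06 and -0.32 on plate 1). Il10 encodes an anti-inflammatory cytokine. Tnf measured 118, 125, 78.1, 185 and 69.1 CPM with IL4 and 136 to 402 CPM with LPS_lo, and its change of -1.42 (adjusted p = 0.412) was not called. Of 16 tested chemokine genes of 23, Ccl8 and Pf4 rose and Cxcl10 fell. Ccl8, a monocyte chemoattractant, measured 77.3, 897, 1521, 1178 and 805 CPM with IL4 against 1.49 to 121 CPM (log2 fold change 4.85, adjusted p = 8.40e-04), and Cxcl10, an interferon-induced chemokine, measured 0 to 7.06 against 3.99 to 83.3 CPM (log2 fold change -3.19, adjusted p = 0.00104). All 38 interferon-stimulated genes on the list were tested, and 2 of them had values above 0 with IL4, as had 4823 of all 11722 genes. Their medians were -0.70 with IL4 and -0.39 with IL13 (-0.56 and -0.24 on plate 1), against -0.13 and -0.11 over all genes. Of the list, Ifi44 (log2 fold change -1.92, adjusted p = 0.0485) and Cxcl10 were the ones called. On plate 1 the pool differed between LPS_lo + IL4 and LPS_lo, and its part in these values was not tested. On plate 1 the value of Ifi44 was -0.54, and the hub gene Ifit3 was at -0.76 (adjusted p = 0.791) over all plates.

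The arginine and nitric oxide list was split by direction. Of 13 tested genes of 16, 3 rose and 3 fell with IL4. Besides Arg1 and Slc7a2, Gatm, an enzyme of creatine synthesis, rose (log2 fold change 2.90, adjusted p = 0.0305). Among the falls Nos2, the inducible nitric oxide synthase, was listed at 0 in 3 of 5 LPS_lo + IL4 cultures against 0.663 to 35 CPM with LPS_lo (log2 fold change -2.76, adjusted p = 0.0341). Sod2, the mitochondrial superoxide dismutase, measured 219.7, 221, 197, 248 and 175 CPM with IL4, 513, 540.2, 496, 400.1 and 561 CPM with IL13 and 459.8 to 904 CPM with LPS_lo, and changed by -1.63 ± 0.24 (SE, adjusted p = 2.78e-06) with IL4. The IL4 cultures did not overlap any other of these cultures. Ncf1, of the phagocyte oxidase, changed by -1.26 (adjusted p = 0.0355), and Irg1, which makes itaconate, by -0.76 (adjusted p = 0.626), which was not called. Nos2 and Ncf1 lost their calls when single cultures were left out.

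Genes of the list called disease-associated microglia, a state known from models of amyloid deposition, held 6 rises of 20 tested and no fall with IL4. Over all genes 0.845% rose. The median of the list was 0.38, against -0.13 over all genes. For LPS_lo relative to None the list had a median of -0.88, but the same LPS_lo cultures enter both values with opposite signs. Igf1, insulin-like growth factor 1 (chr10:87858265-87937042), measured 1368, 1564, 1919, 1790.2 and 702 CPM with IL4, 1076, 1152, 1274, 1249 and 449.8 CPM with IL13, 320.1 to 699 CPM with LPS_lo and a median of 1744 CPM untreated. On plate 1 both combinations were above all LPS_lo cultures, and replicate 5 of LPS_lo + IL13 lay inside them. Its rises were 1.68 ± 0.24 (SE, adjusted p = 1.19e-06) for IL4 and 1.18 ± 0.24 (SE, adjusted p = 0.0180) for IL13. Osteopontin (Spp1) measured 409, 425, 374, 357 and 149 CPM with IL4 against 60.1 to 235 CPM with LPS_lo and a median of 513 CPM untreated (log2 fold change 1.52, adjusted p = 3.72e-04). The lectin genes Clec7a (log2 fold change 1.58, adjusted p = 2.17e-04) and Lgals3 (log2 fold change 1.91, adjusted p = 1.35e-09), the integrin Itgax and the cystatin Cst7 (log2 fold change 2.33, adjusted p = 0.00211) also rose. Trem2, a lipid-sensing receptor of microglia counted with the scavenger and lectin receptors, measured 589, 527, 557, 626 and 219 CPM against 129 to 379 CPM, where replicate 5 lay within the LPS_lo range (log2 fold change 1.18, adjusted p = 0.00114). Of 21 tested homeostatic microglia genes, Aif1 fell (log2 fold change -1.80, adjusted p = 0.0439) and none rose, with medians of -0.04 for IL4 and 0.01 for IL13.

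Matrix and growth factor genes were 22 tested of 29, and 5 of them rose with IL4. The collagenase Mmp13 measured 76.1, 37.5, 51.2, 35.6 and 52.6 CPM with IL4 against 0 to 15.9 CPM (log2 fold change 3.08, adjusted p = 0.00321), and the protease inhibitor Timp2 measured 668, 1877, 2204, 1819.9 and 1728 CPM with IL4, 1005, 849, 614, 418 and 906 CPM with IL13 and 225 to 473 CPM with LPS_lo. Every IL4 culture was above every LPS_lo culture for both, and the Timp2 values were 2.13 ± 0.25 (SE, adjusted p = 9.37e-09) for IL4 and 1.04 (adjusted p = 0.0864) for IL13. Thbs1 and the vascular growth factor gene Vegfa were among those that fell, Vegfa from 3.02 to 17.9 CPM to 0 to 6.4 CPM (log2 fold change -2.31, adjusted p = 0.0243). Vegfa was not called without LPS_lo + IL4 replicate 5. Scavenger, lectin and Fc receptor genes went both ways: of 26 tested, Mrc1, Clec7a, Clec10a, Fcgr2b and Trem2 rose and Marco and Clec4d fell, with a median of -0.75. Fcgr2b, the inhibitory Fc receptor, measured 459, 1047, 1143, 1345 and 752 CPM with IL4 against 92.6 to 387 CPM (log2 fold change 1.95, adjusted p = 7.63e-04), and the scavenger receptor Marco 136, 125, 135, 107 and 88.6 against 393 to 709 CPM (log2 fold change -2.26, adjusted p = 0.00330).

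The remaining lists are read against the 1.97% of all genes called with IL4. None of 22 tested proliferation genes was called, with a median of 0.38, while the same genes had medians of 2.02 with IL4 alone and 1.95 with IL13 alone against None. Of 24 tested lipid genes, Ch25h, the cholesterol 25-hydroxylase, rose (log2 fold change 2.67, adjusted p = 0.0127), of 13 genes of MHC class II and costimulation Pdcd1lg2 rose (median -0.27 over all plates and 0.51 on plate 1), and of 16 eicosanoid genes Ptgs1 rose (log2 fold change 3.61, adjusted p = 1.07e-04) and Ptges fell (log2 fold change -2.80, adjusted p = 0.00490). Ptgs1 and Ptges encode a cyclooxygenase and a prostaglandin E synthase.

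**Figure D3:**
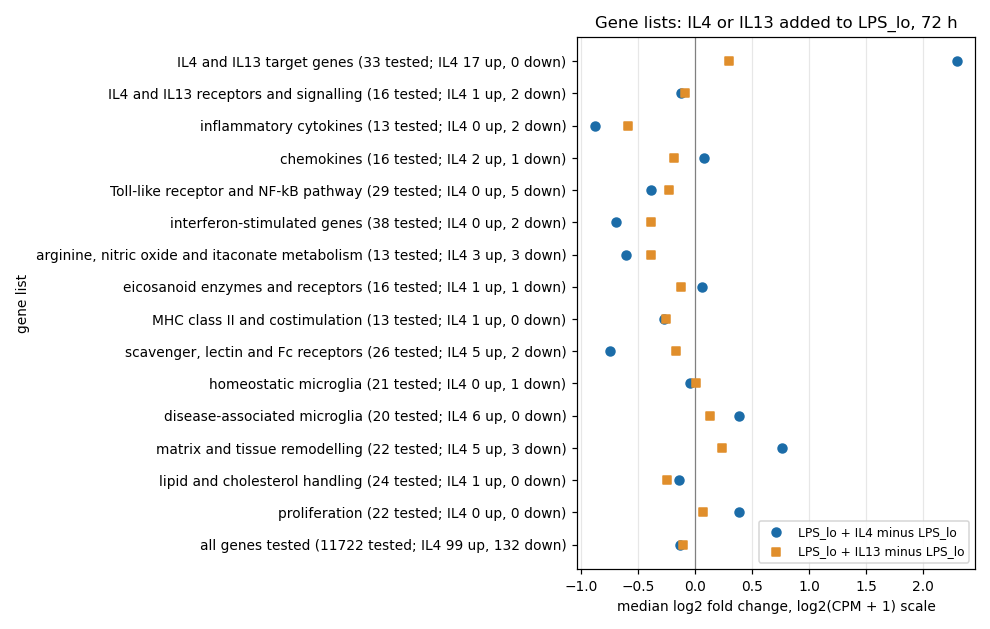
Median log2 fold change of each gene list on the log2(CPM + 1) scale, for LPS_lo + IL4 against LPS_lo (circles) and LPS_lo + IL13 against LPS_lo (squares). The list of IL4 and IL13 targets stood at 2.30 for IL4 and 0.30 for IL13, and the medians of the inflammatory cytokine list were -0.87 and -0.59. The 2 comparisons share their LPS_lo cultures.

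IL13 raised 5 genes and lowered 3. Besides Arg1, Slc7a2, Atp6v0d2 and Igf1, the fifth rise was Lad1, which encodes ladinin, a filament-associated protein (chr1:135818598-135833342). Lad1 measured 32.5, 10.4, 16.2, 14.8 and 0 CPM with IL13, 22.7, 7.51, 5.32, 10.7 and 0 CPM with IL4 and 0 to 8.79 CPM with LPS_lo, so both combinations overlapped LPS_lo, and in replicate 5 of both it was listed at 0. It rose by 2.91 ± 0.49 (SE, adjusted p = 0.00200) with IL13 and 2.35 ± 0.49 (SE, adjusted p = 0.00186) with IL4, while cultures with IL4 or IL13 alone held at most 0.336 CPM. The lowered genes were Zfc3h1 (log2 fold change -2.83, adjusted p = 0.0498), Cd69, an early activation antigen (log2 fold change -2.65, adjusted p = 0.0498), and Gpr18 (log2 fold change -2.35, adjusted p = 0.0189). With the pool term and with both plate terms Igf1 and Lad1 were called and none of the 3 lowered genes was. On plate 1 IL13 lowered no gene by limma, and these 3 genes were at -2.13 (adjusted p = 0.989), -1.84 (adjusted p = 0.999) and -2.21 (adjusted p = 0.595) there. Without regard to multiple testing, 627 of 11722 genes had a p under 0.05 for IL13 by limma and 714 by the exact rank-sum test, which called none after adjustment. With no change in any gene, a share of about 0.05 of the genes would pass this limit, so these counts alone show no wider response. Leaving out LPS_lo + IL13 replicate 1, 2 or 3 left 3, 5 and 5 calls. Arg1 and Atp6v0d2 remained called whichever LPS_lo + IL13 or LPS_lo culture was left out, whereas Slc7a2 lost its call without LPS_lo + IL13 replicate 1, 2 or 3 and Igf1 without any of replicates 1 to 4.

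LPS_lo + IL4 was next set directly against LPS_lo + IL13, a comparison of 5 with 5 cultures that called 20 genes (0.171%), 15 higher with IL4 (0.128%) and 5 lower (0.0427%). Msx3 (4.55 ± 0.69 SE, adjusted p = 8.39e-05), Tmem26 (4.49 ± 0.81 SE, adjusted p = 0.00161), Pdcd1lg2 (3.50 ± 0.44 SE, adjusted p = 9.48e-07), Mrc1 (3.33 ± 0.77 SE, adjusted p = 0.0324), Itgax (3.29 ± 0.70 SE, adjusted p = 0.0150) and Fn1 (3.19 ± 0.68 SE, adjusted p = 0.0147) were higher with IL4. Serpina3g, a serine protease inhibitor, was listed at 0 in all 5 LPS_lo + IL13 cultures and measured 0.509, 16.6, 18.6, 13.1 and 11.3 CPM with IL4 (adjusted p = 3.51e-04). Atp6v0d2 was also higher (2.31 ± 0.48 SE, adjusted p = 0.0108), as were Cish and Chil3. The genes lower with IL4 were Il1b (-3.03 ± 0.66 SE, adjusted p = 0.0199), the medium-chain fatty acid receptor gene Gpr84 (-2.78 ± 0.61 SE, adjusted p = 0.0209), Itgal (-2.32 ± 0.48 SE, adjusted p = 0.0117), Sod2 (-1.24 ± 0.28 SE, adjusted p = 0.0265) and Serp1, of the endoplasmic reticulum (-1.18 ± 0.24 SE, adjusted p = 0.00993). For Arg1 the difference of 3.10 ± 0.84 (SE, adjusted p = 0.161) was not called although the cultures did not overlap, and on plate 1 it was 2.82 (adjusted p = 3.30e-05). Retnla, Slc7a2 and Egr2 likewise had differences of 2.84 (adjusted p = 0.546), 2.39 (adjusted p = 0.410) and 3.11 (adjusted p = 0.0675) over all cultures and passed on plate 1, at 2.89 (adjusted p = 2.93e-04), 2.08 (adjusted p = 0.0126) and 2.90 (adjusted p = 0.0102). For Igf1 the difference was 0.51 ± 0.28 (SE, adjusted p = 0.955). Plate 1 alone called 39 genes (0.385%), 26 higher and 13 lower with IL4, and held 13 of the 19 genes of the 20 that could be tested there. On plate 1 the pool differed between these groups as well. Leaving out LPS_lo + IL4 replicate 1, 2, 4 or 5 gave 32, 8, 11 and 13 calls, and leaving out both plate 3 cultures gave 3.

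The response to LPS_lo itself was read next. Over all plates LPS_lo against None called 1189 genes (10.1%), and genes that LPS_lo changed were chosen anew on plates 2 and 4 and read on plate 1, so that choice and reading shared no culture. Of 475 genes raised there, 465 were tested on plate 1, where LPS_lo against None had a median of 2.06. Adding IL4 gave a median of -0.51 for these genes, with 364 below 0 (78.3%, against 52.6% of all genes), 38 called lower and 1 higher. Adding IL13 gave -0.20, with 320 below 0 (68.8%, against 52.7%) and none called. Of 638 genes lowered by LPS_lo, 591 were tested on plate 1, with a median of -0.69 for LPS_lo against None. IL4 gave 0.21 for these, with 31 called higher and none lower, and IL13 gave 0.13, with 3 called higher and none lower. Groups on plate 1 share the LPS_lo wells, which enter the LPS_lo minus None and the cytokine values with opposite signs.

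The effect of each cytokine was then compared with its effect in the absence of LPS_lo, where no culture is shared. The library pool was shared, however. All 3 IL4 alone wells and 4 of the 5 LPS_lo + IL4 wells were in pool 1, with 1 of the 25 None wells and no LPS_lo well. The part of the pool in the overlap between the 2 IL4 comparisons was not tested. IL4 alone raised 215 genes against None (1.83%), with a median of 2.57 in the comparison that chose them. With LPS_lo, 43 of the 215 were called higher, 20.0% of them and 43.4% of the 99 raised with LPS_lo, 189 had a positive value and the median was 0.78. IL4 alone lowered 150 genes (1.28%), of which 25 also fell with LPS_lo. IL13 alone raised 156 genes (1.33%), with a median of 1.88, and 3 of them rose with LPS_lo (Arg1, Slc7a2 and Atp6v0d2), with a median of 0.29 and 115 positive. It lowered 119 genes (1.02%), none of which was called with LPS_lo.

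Testing that difference itself, as an interaction, called 30 genes for IL4 (0.256%), 21 with a lower response in LPS_lo (0.179%) and 9 with a higher one (0.0768%). The count was 126 on plate 1 alone (38 higher, 88 lower), 57 with a plate term in the 6 groups and 61 with one over all cultures at 72 h. Retnla was at 4806, 4721 and 5819 CPM with IL4 alone and at 38.2 to 164 CPM with LPS_lo + IL4, an interaction of -6.27 ± 1.26 (SE, adjusted p = 0.00509). Chil3 measured 1216, 1045 and 1055 CPM with IL4 alone (-5.77 ± 0.81 SE, adjusted p = 3.01e-06) against the 15.4 to 38.3 CPM given above, and the lectin Mgl2 402 to 640.1 CPM against 1.69 to 24 CPM (-6.03 ± 1.01 SE, adjusted p = 1.84e-04). Cldn11, a claudin of tight junctions, measured 130.0 to 154 CPM with IL4 alone and 0 to 1.33 CPM with LPS_lo + IL4 (-6.76 ± 0.81 SE, adjusted p = 3.81e-08), and the ribonuclease Rnase2a 419 to 511 against 0.997 to 54.1 CPM (-6.42 ± 0.97 SE, adjusted p = 1.87e-05). Ear2, F7, Bex1 and the fusion proteins Ocstamp and Dcstamp were also in this set, and reads of Ear2 and Rnase2a can be split between these near-identical genes. For Arg1, IL4 alone gave 1719, 2152 and 1758 CPM and LPS_lo + IL4 gave 409.8 to 904 CPM, and the interaction of -1.68 ± 1.08 (SE, adjusted p = 0.750) was not called. For Slc7a2 it was -0.73 ± 0.96 (SE, adjusted p = 0.885).

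In the other direction, Spp1 (2.14 ± 0.43 SE, adjusted p = 0.00509), Igf1 (1.66 ± 0.36 SE, adjusted p = 0.0142), Trem2 (1.54 ± 0.36 SE, adjusted p = 0.0367), Pf4 (2.90 ± 0.65 SE, adjusted p = 0.0246), the serotonin receptor Htr2b (3.14 ± 0.74 SE, adjusted p = 0.0367) and the TAM receptor ligand Gas6 (1.96 ± 0.37 SE, adjusted p = 0.00183) responded more to IL4 in LPS_lo. For Igf1 and Spp1 the LPS_lo median was below the untreated one (440.2 against 1744 CPM, and 107 against 513 CPM), and IL4 alone gave 1427 to 2026 CPM of Igf1 and 301 to 457 CPM of Spp1. Phax, Arl4c and H3f3b completed the 9. IL4 alone was measured in 3 cultures, all on plate 1, and leaving out replicate 1, 2 or 3 of them gave 13, 19 and 11 interaction calls in place of 30.

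For IL13 the interaction called 15 genes (0.128%), 10 with a lower response in LPS_lo (0.0853%) and 5 with a higher one (0.0427%). On plate 1 alone it called 164 (33 higher, 131 lower), with a plate term in the 6 groups 63 and with one over all cultures at 72 h 50. Retnla measured 1673, 911, 1613, 99.6, 1042 and 1524 CPM with IL13 alone against 7.69 to 25 CPM with LPS_lo + IL13 (-6.53 ± 1.09 SE, adjusted p = 4.11e-04), Tmem26 57.1 to 292 against 0.334 to 26.1 CPM (-6.09 ± 0.90 SE, adjusted p = 4.12e-05) and Chil3 15.7 to 131 against 0 to 3.2 CPM (-3.93 ± 0.70 SE, adjusted p = 0.00134). Replicate 4 of IL13 alone was the lowest of its group for both Arg1 and Retnla. Mgl2, Rnase2a, Cldn11, Cish, the transcription factors Klf4 and Nfil3 and the ubiquitin ligase Cblb made up the rest, and Spp1 (1.62 ± 0.37 SE, adjusted p = 0.0415), Lad1, Gstm1, Tab3 and RP24-140K12.4 responded more in LPS_lo. Arg1 measured 1011, 874, 881, 291, 1009 and 1028 CPM with IL13 alone and 47.5 to 174 CPM with LPS_lo + IL13, with an interaction of -3.53 (adjusted p = 0.137) over all plates and -3.56 (adjusted p = 6.27e-05) on plate 1. Without LPS_lo + IL13 replicate 1 the interaction called 7 genes.

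Finally, the genes were grouped by the coexpression modules of the study, which were clustered on conditions of this series without the LPS combinations, so they are not independent of the control cultures. Over all tested genes 0.845% rose and 1.13% fell with IL4, and the medians were -0.13 for IL4 and -0.11 for IL13. The module SA_salmon held 27 tested genes, of which 10 rose with IL4 (Retnla, Rnase2a, Mgl2, Msx3, Chil3, Arg1, Tmem26, Clec10a, Pdcd1lg2 and Il20rb), with a median of 1.49 for IL4 and 0.25 for IL13. TQ_turquoise held 143 tested genes, with 15 rises, among them Trem2, Lgals3, Igf1, Atp6v0d2, Timp2, Flt1 and Clec7a, and 3 falls. In CY_turquoise 11 of 38 genes fell and none rose, among them Sod2, Marco, Fpr2, Gpr84, Ptges, Tlr2, Tnip1 and Gpr18, with a median of -1.0 for IL4 and -0.31 for IL13. YE_turquoise held 20 falls of 101, among them Irak3, Lcn2, Saa3, Il10, Itgal, Nfkbiz and Serp1 (median -0.66), and CY_blue 7 of 34 (median -0.70). BR_turquoise, of which Ifit3 is a hub gene, held 1 rise and 5 falls of 147, with a median of -0.61. On plate 1 its median was -0.40, against -0.03 over all genes. Of the other hub genes, Irak3 fell, and Clec4e (log2 fold change -0.99, adjusted p = 0.631) and Naaa (log2 fold change -0.03, adjusted p = 0.995) were not called.

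**Figure D4:**
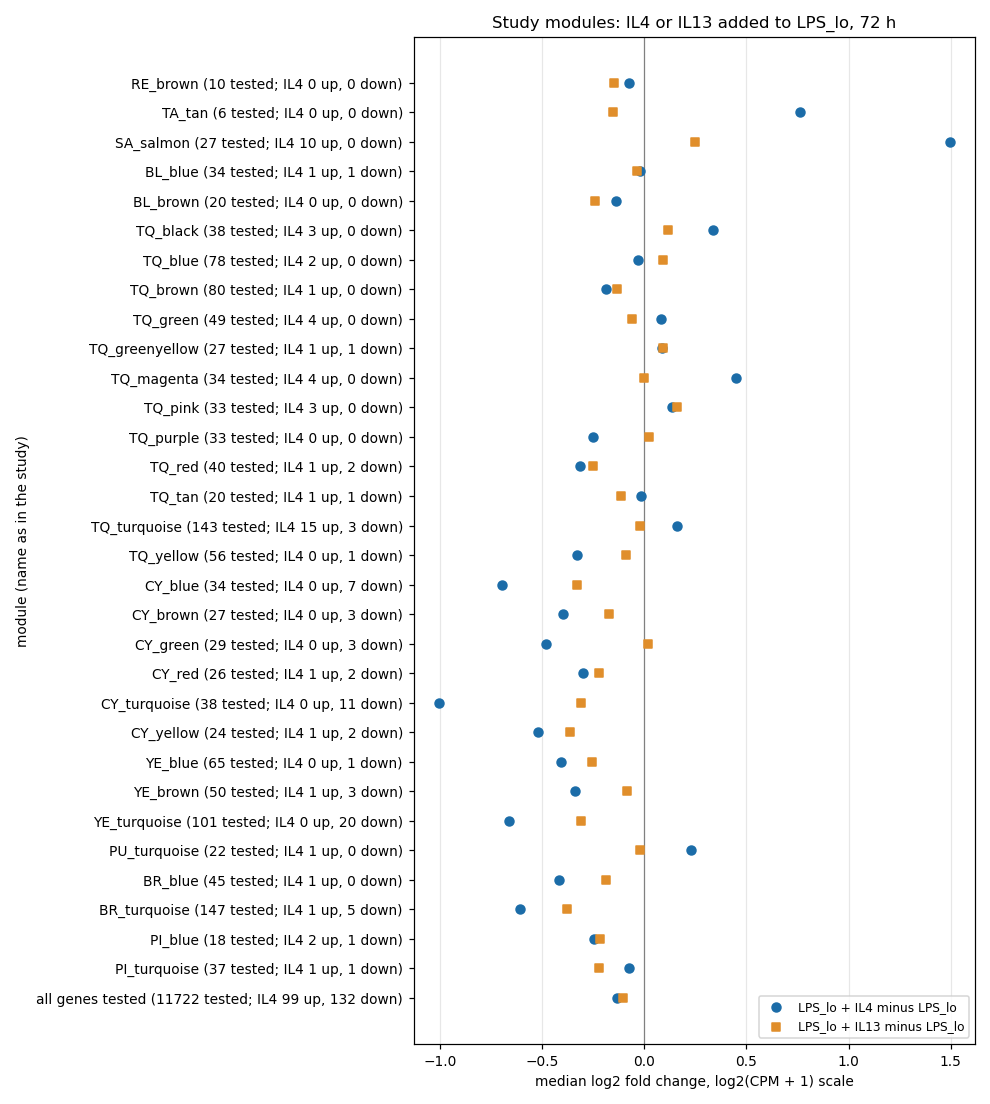
Median log2 fold change of the tested genes of each study module on the log2(CPM + 1) scale, with circles for LPS_lo + IL4 against LPS_lo and squares for LPS_lo + IL13 against LPS_lo. SA_salmon stood at 1.49 and CY_turquoise at -1.0 for IL4, and the IL13 medians of all modules lay between -0.38 and 0.25. The 2 comparisons share their LPS_lo cultures.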

How the data were processed

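The study measured RNA of cultured microglia by 3′-end sequencing (QuantSeq) after linear T7 amplification of pooled, barcoded cDNA. Per the labels and the study's methods, the authors mapped reads to mouse transcripts of Ensembl build 81 by salmon 0.7.1, added up each gene's transcripts and deposited CPM, a gene's share of all mapped reads. The study calls these values TPM, but its methods describe no length scaling. They dropped cultures of low depth, and the processing notes also name an older genome build. CPM is relative, so a change in a few very abundant genes shifts the others. Low values were within 0.1 of whole reads in 72.2% to 86.5% of cases, too few to recover counts, and no count test was run. The file had 45581 genes, and 481 of its columns were not used.

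Here log2(CPM + 1) was fitted with limma 3.58.1 (trend) in R 4.3.3 over 55 cultures of 6 groups (None 25, LPS_lo 11, IL4 3, IL13 6, LPS_lo + IL4 5, LPS_lo + IL13 5), for 11722 genes above 5 CPM in at least 4 cultures, without a plate term. A call needed a log2 fold change of 1 or more in either direction with a Benjamini-Hochberg adjusted p under 0.05. Summaries used Python 3.11.15 with pandas 2.3.3 and scipy 1.17.1, and the fit was tested on simulated data. Depth over the 55 cultures, estimated from the low CPM values, was 1.00 to 16.2 M mapped reads (median 5.60), which limits low genes most. No 2 cultures held identical values.

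Named genes were members of the gene lists, the 12 largest rises and falls of each cytokine against LPS_lo and 6 each way between the combinations (called, mean of at least 10 CPM in the higher group, groups not overlapping), the hub genes Ifit3, Naaa, Clec4e and Irak3 and the study's modules, and promoters of the first 6 genes in the RefSeq table by the smaller of the fold changes with IL4 and IL13. Il4ra, Stat6, Tnf and Irg1 are list members named although not called. The members and lists were chosen with earlier results of these data known. Alternatives were other filters, pseudocounts, scalings, fits and samples, and plate 1 alone, a plate term in 6 groups, fits without the plate 3 combinations, the reading of LPS_lo genes on plate 1 and levels in wells of the same pool, which were chosen after seeing the data. Results that need some marker and matrix genes are not reported here.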

Additional observations from a re-analysis of the deposited data

Results flagged for a closer look

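In groups of 4 to 10 cultures, 90 pairs of a named gene and a group (30 genes) were examined for a culture whose gap to the nearest other exceeded Dixon's limit, and 21 did. Chance gives about 1 in 20. Of the 21, 3 were the plate 3 culture of a combination.

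LPS_lo + IL4 replicate 1 (plate 1) was the lowest of its group for Cbr2 at 17.1 CPM, Slc7a2 at 179 CPM, Msx3 at 3.63 CPM, Mrc1 at 60.6 CPM and Serpina3g at 0.509 CPM. These genes rose with IL4 or were higher than with IL13, so this culture had the weakest rise of each. Its well was the only one of the group at the left edge of a plate. In the same group Gm16933 was highest in replicate 3 (1.19 CPM), Gpr18 was highest in replicate 4 (0.666 CPM) and Itgal was lowest in replicate 5 (16.5 CPM).

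In LPS_lo + IL13, replicate 4, the only right-edge well of the group, stood apart with 240 CPM of Fpr2 and 6.22 CPM of Gpr84, both the lowest, and 348 CPM of Lcn2, the highest. Replicate 5 held 0.668 CPM of Fn1 and 2.01 CPM of Mrc1, both the lowest, and replicate 2 held the most Pdcd1lg2, at 1.38 CPM.

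IL13 alone replicate 4, on plate 3 and the only right-edge well of its group, was the lowest of its group for Arg1 (291 CPM), Slc7a2 (37.2 CPM), Retnla (99.6 CPM), Mrc1 (96.0 CPM) and Cbr2 (listed at 0). IL13 alone replicate 1 held 1.10 CPM of Gpr18 and 7.27 CPM of Pdcd1lg2, each apart from the other 5 cultures. The part of well position was not tested.

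The effect of IL4 differed with and without LPS_lo for 30 genes by the limma interaction, and that of IL13 for 15, while plate 1 alone gave 126 and 164. Among the named genes the IL4 interaction was -5.77 for Chil3, -6.03 for Mgl2, -6.27 for Retnla, -6.42 for Rnase2a, -3.59 for Sirpb1c and -1.55 for Sod2, and it was 1.66 for Igf1, 2.90 for Pf4, 2.14 for Spp1 and 1.54 for Trem2 (log2 scale). The IL13 interaction was -3.93 for Chil3, -3.10 for Cish, -3.57 for Klf4, -4.14 for Mgl2, -6.53 for Retnla, -5.09 for Rnase2a and -6.09 for Tmem26, and 1.62 for Spp1.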

How the results depend on the processing

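No paired analysis was possible because the labels give the cultures no replicate numbers, and the numbers used here follow the order of the accessions. All counts below are of called genes. For IL4 in LPS_lo (231) the count was 592 with array weights, 150 without the plate 3 combinations and 137 to 259 with 1 culture left out. It had 99 higher and 132 lower, against 111 and 46 with a pool term, 133 and 95 with a plate term over all cultures at 72 h, and 173 and 173 with a plate term in 6 groups. For IL13 in LPS_lo (8) it was 51 with array weights, 13 without the plate 3 combinations, 0 by the exact rank-sum test, 5 with all cultures at 72 h or with the 3 LPS_lo groups alone, 4 with a pool term, either plate term, a pseudocount of 0.25 or a filter of 20 CPM, and 3 to 12 with 1 culture left out. For IL4 against IL13 (20) it was 105 with array weights, 31 with all cultures, 42 with a pool term, 45 and 46 with plate terms in 6 groups and over all cultures, 39 on plate 1, 11 and 36 with pseudocounts of 0.25 and 5, 3 without the plate 3 combinations, 0 by rank-sum and 8 to 32 with 1 culture left out. With 5 cultures a group the smallest rank-sum p is 0.00794, and 0.000458 with 5 against 11. The IL4 interaction (30) called 207 with array weights, 70 with a pool term, 57 and 61 with plate terms, 60 with no filter, 126 on plate 1, 49 with a pseudocount of 5 and 11 to 30 with 1 culture left out. The IL13 interaction (15) called 38 with array weights, 36 with a pool term, 63 and 50 with plate terms, 23 with all cultures, 164 on plate 1, 5 with a pseudocount of 0.25 and 7 to 16 with 1 culture left out.

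Of the named genes, Naaa, Clec4e, Irg1, Il4ra and Stat6, none of them called, changed sign for IL4, and no other named gene did in any comparison. Calls were less stable than signs. Of 72 genes followed for IL4 in LPS_lo, 18 lost their call with a pool term, 16 on plate 1 alone and 13 without the plate 3 combinations. With a pool term Naaa, Clec4e, Irg1 and Il4ra were at 0.43, 0.044, 0.084 and 0.024. Naaa was also at 0.071 with median-of-ratios scaling, 0.41 on plate 1, 0.69 and 0.53 with plate terms, 0.036 with a pseudocount of 5 and 0.034 without the plate 3 combinations, where Stat6 was at 0.19. With 1 culture left out Naaa ranged from -0.30 to 0.45 and Stat6 from -0.34 to 0.19. The IL13 call was lost with a pool term for Arg1 and Atp6v0d2, with a plate term in 6 groups for Arg1 and Slc7a2, and for Atp6v0d2 with all cultures at 72 h, with and without a plate term. The causes were not tested.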
